A study of Mus musculus with 8 samples.

Results

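The IFIT and IFITM families were described here through 9 genes chosen by name, namely Ifit1, Ifit2, Ifit3, Ifit3b, Ifit1bl1 and Ifit1bl2 on chromosome 19 and Ifitm1, Ifitm2 and Ifitm3 on chromosome 7. They are 9 of 55487 gene rows, their identifiers were matched to symbols in GENCODE M21, and 9 of the 9 passed the count filter and were tested. RNA was sequenced from 8 tumors of the Lewis lung carcinoma (LLC) line, a mouse lung carcinoma, grown subcutaneously in syngeneic C57BL/6J mice and taken 12 days after implantation. The cancer cells were wild-type in 4 tumors and labelled Ago2 knock-out (ΔAgo2) in the other 4, and per the methods of the study the mice were females bought at 6 to 8 weeks of age. The ΔAgo2 cells carried a lentiviral CRISPR guide and were grown from 1 clone, so a property of that clone and the loss of Ago2 cannot be told apart, and host cells in both groups kept Ago2. The 8 libraries carry batch label 1, and nothing in the labels ties a wild-type tumor to a ΔAgo2 tumor of the same number.

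IFIT proteins are cytoplasmic and bind RNA, among it viral RNA that lacks the cap modifications of host messengers, and some of them block its translation. IFITM proteins are small membrane proteins that hinder the fusion of enveloped viruses with the membranes of the cell. Genes of both families are switched on by interferon (IFN) through DNA elements called ISREs, while many cells also keep IFITM proteins at a steady level without added IFN. In tumors both families serve as readouts of IFN signaling, in the cancer cells and in the host cells that enter the tumor.

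Promoter sequences are shown first because ISREs are the feature by which the families are known to answer IFN. They were taken from RefSeq on GRCm38.p6, which held a window from 250 bases before to 50 bases after a start for 9 of the 9 genes and for 32817 windows in all. The letters searched were an ISRE core, GAAANNGAAA on either strand, and a GAS element, TTCNNNGAA, known from genes that answer type II IFN. The ISRE core occurred in 3.43% of the 32817 windows and the GAS letters in 8.29%. In the lines below the stretches end at the base before the annotated start, they are written 5′ to 3′ on the plus strand, and capitals mark the ISRE core on either strand.
Ifit1: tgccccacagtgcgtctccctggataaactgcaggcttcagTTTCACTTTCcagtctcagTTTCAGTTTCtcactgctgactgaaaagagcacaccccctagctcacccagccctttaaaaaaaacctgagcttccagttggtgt
Ifit3: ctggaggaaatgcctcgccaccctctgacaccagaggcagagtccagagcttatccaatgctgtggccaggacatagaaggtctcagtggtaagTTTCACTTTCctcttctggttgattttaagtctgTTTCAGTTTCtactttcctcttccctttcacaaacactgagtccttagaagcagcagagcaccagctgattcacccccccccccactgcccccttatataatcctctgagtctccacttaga
Ifit3b: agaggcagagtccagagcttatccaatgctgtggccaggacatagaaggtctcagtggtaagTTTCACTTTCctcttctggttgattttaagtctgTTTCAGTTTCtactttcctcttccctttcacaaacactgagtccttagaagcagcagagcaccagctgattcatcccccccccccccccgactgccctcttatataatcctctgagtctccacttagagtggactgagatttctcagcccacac
Ifit2: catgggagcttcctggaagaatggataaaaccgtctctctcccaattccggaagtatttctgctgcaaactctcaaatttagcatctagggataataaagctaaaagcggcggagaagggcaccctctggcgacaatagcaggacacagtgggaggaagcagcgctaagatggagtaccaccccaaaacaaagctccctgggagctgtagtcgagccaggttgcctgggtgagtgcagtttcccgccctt
The stretch for Ifit1 (chr19:34640744-34640888) is the 145 bases between the RefSeq starts of Ifit1 and Ifit1bl2, which are transcribed away from each other, so its 2 ISRE cores lie before both genes. The cores end 95 and 76 bases before the Ifit1 start. The stretches for Ifit3 (chr19:34583279-34583528) and Ifit3b (chr19:34607707-34607956) share a run of 169 identical bases that holds 2 ISRE cores, which begin 156 and 122 bases before the Ifit3 start and 188 and 154 bases before the Ifit3b start. The stretch for Ifit2 (chr19:34550444-34550693) holds no ISRE core, while the GAS letters occur in it 241 bases before the start. The window of its second RefSeq start holds no ISRE core either. Both starts (34550694 and 34551088) lie at the 5′ end of the annotated gene, which runs to 34576419. No other part of Ifit2 was searched, so an ISRE elsewhere in it would have been missed.

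Short stretches are shown for Ifit1bl1, Ifitm2 and Ifitm3, each with 10 bases on either side of the core and written 5′ to 3′ on the strand of the gene.
Ifit1bl1: actctgtaggTTTCATTTTCtgtaggttgg
Ifitm2: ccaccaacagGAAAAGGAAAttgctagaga
Ifitm3, first core: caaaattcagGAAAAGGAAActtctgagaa
Ifitm3, second core: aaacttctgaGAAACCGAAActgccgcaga
The core printed for Ifit1bl1 (chr19:34602063-34602072) lay 104 to 95 bases before its upstream start. Another core with the same letters (chr19:34599441-34599450) lay 23 to 14 bases before its other RefSeq start. The core of Ifitm2 (chr7:140955998-140956007) lay 46 to 37 bases before its start. Ifitm3 had its 2 cores (chr7:141010733-141010742 and chr7:141010716-141010725) just after the annotated start. The window of Ifitm1 held neither motif. Hence 7 of the 9 genes had the ISRE letters in a window, as did 18 of the 31 other interferon-stimulated genes with a window (58.1%). A match is a description of the letters and not of binding.

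The families form 2 clusters. The 6 Ifit genes lie within 99.3 kb of chromosome 19 (34550694 to 34650009, GRCm38), and the 3 Ifitm genes within 55.9 kb of chromosome 7 (140954837 to 141010770). All 9 are annotated as protein-coding. Near-identical copies make some counts uncertain, since how reads that match several genes were counted is not stated for these files. Longest transcripts of Ifit3 and Ifit3b are 97.8% identical over their alignment, and 31.7% of the 100-base windows of Ifit3 also occur in Ifit3b. Those of Ifit1bl1 and Ifit1bl2 are 89.3% identical. Of the 100-base windows of Ifitm2, 34.9% occur in Gm45717, Gm8865 or Gm11951, and its exons overlap those of Gm45717 by 268 bases. By contrast, no 100-base window of Ifit2, Ifitm1 or Ifitm3 occurs in another gene.

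Depth ran from 7903288 counts in wild-type tumor 4 to 268564145 in ΔAgo2-labelled tumor 4, so that a count of 0 allows up to 0.430 CPM in the former and 0.0105 CPM in the latter. CPM is the count of a gene scaled to a common library total after TMM. Ago2 itself had 154 ± 28.9 CPM in wild-type tumors and 240 ± 99.2 CPM (SD, n = 4) in ΔAgo2-labelled tumors (log2 fold change 0.64, edgeR adjusted p = 0.205), so transcript level did not check the genotype labels. The study assessed the knock-out at the protein level, by a Western blot for Ago2 on the LLC cells. Of the markers of the labelled cell type, Krt8 and Krt18 of simple epithelium were present in every tumor. Krt19, Epcam and Cdh1 of the same list had much lower means. In wild-type tumors these were 5.52 ± 3.63, 1.23 ± 0.615 and 4.21 ± 2.16 CPM (SD, n = 4). In ΔAgo2-labelled tumors they were 4.08 ± 2.82, 3.04 ± 1.24 and 11.2 ± 2.38 CPM (SD, n = 4), and 0 of the 5 genes were called. The lung epithelium genes Nkx2-1, Sftpc and Sftpb summed to at most 0.0477 CPM. Skeletal muscle markers summed to 196 to 2965 CPM in wild-type and 33.4 to 162 CPM in ΔAgo2-labelled tumors, and keratinocyte markers to 9.35 to 540 against 424 to 827. Fibroblast markers summed to 4841 to 7167 against 2200 to 4576 CPM, a sum led by Col3a1. They did not move as a set, and 0 of 6 were called. The log2 fold changes were -1.30 for Col1a1, -1.22 for Col1a2, -0.70 for Col3a1 and -0.64 for Lum. Those of Pdgfra and Dcn were 0.68 and 0.16. In bulk tumors, fewer cells of a type and less RNA per cell cannot be told apart.

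The question put to the families was whether they differed between tumors with wild-type and ΔAgo2 cancer cells. The 6 Ifit genes had positive log2 fold changes, 0.76 to 1.61 in favor of ΔAgo2-labelled tumors, and the 3 Ifitm genes had values of -0.34 to -0.09, so the families had opposite signs at the level of the group means. With edgeR's quasi-likelihood test, 0 of the 9 genes had an adjusted p under 0.05, where 3.49% of the 16061 genes tested did (560, of which 219, or 1.36%, higher). At an unadjusted p under 0.05, 4 genes were higher, namely Ifit1, Ifit2, Ifit3 and Ifit3b, against 13.7% of all genes tested. DESeq2 called 3 of the 9 (Ifit1, Ifit2 and Ifit3, all higher) where it called 14.9% of genes, and limma voom with quality weights called Ifit2 as higher and Ifitm3 as lower where it called 27.9%. The median log2 fold change was 1.28 over the Ifit genes and -0.10 over the Ifitm genes, beside 0.04 over all genes tested. Ifit1, Ifit2 and Ifit3 belong to a list of 15 IFN genes that the study chose on these tumors, so their direction is not independent evidence.

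**Figure D1:**
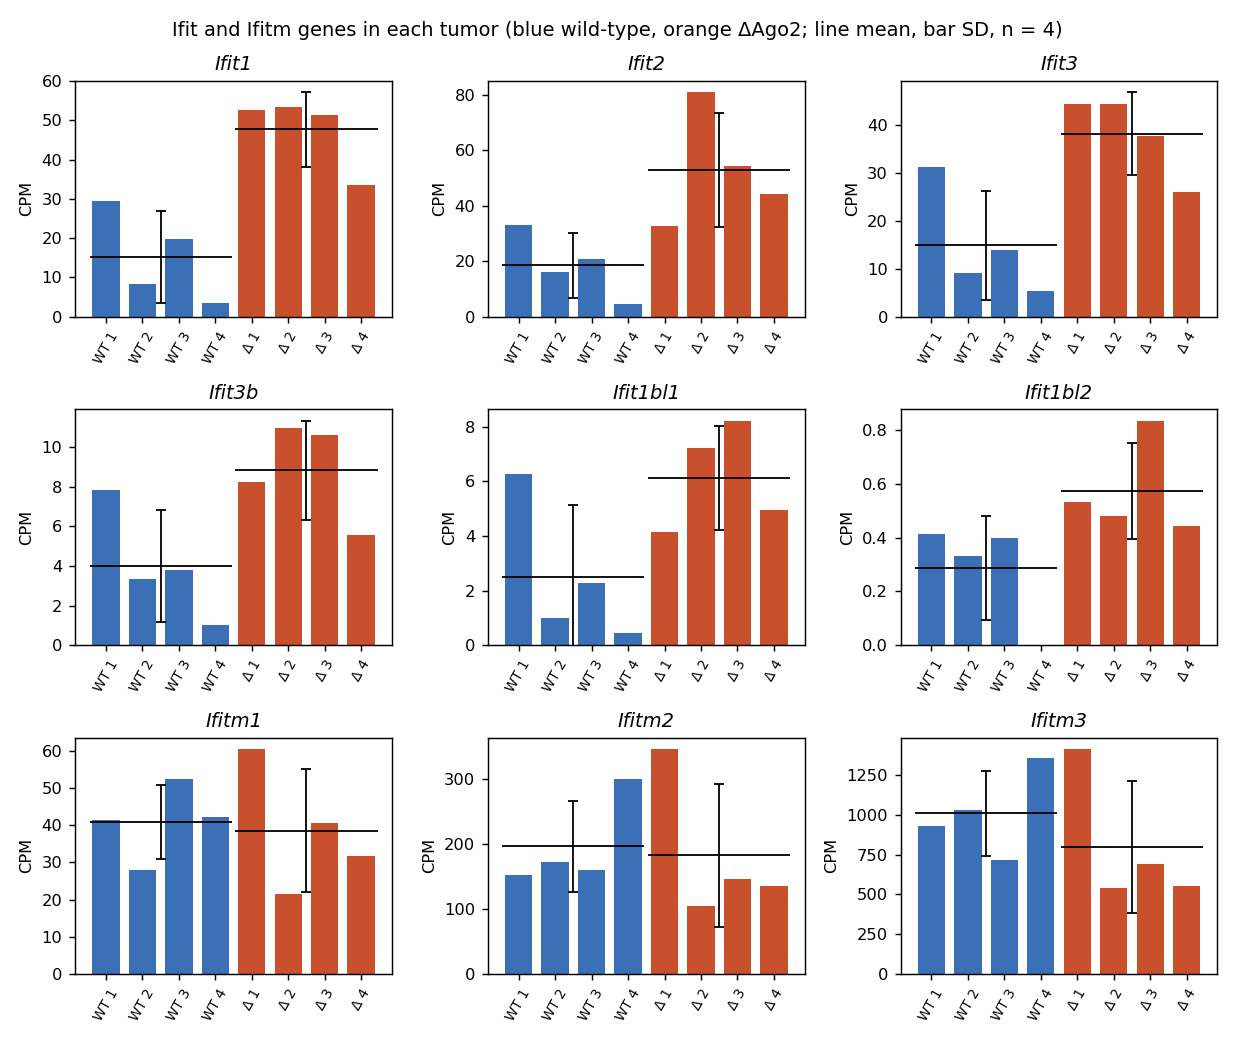
CPM (y axis, linear from 0) of each of the 9 genes in each of the 8 tumors (x axis; WT wild-type in blue, Δ ΔAgo2-labelled in orange), with the group mean as a line and the SD as an error bar (n = 4). Wild-type tumor 4 has the lowest bar for each Ifit gene, while wild-type tumor 4 and ΔAgo2-labelled tumor 1 have the highest bars for Ifitm2 and Ifitm3.

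Ifit1, which binds messengers without the full host cap, stood at 29.6, 8.44, 19.8 and 3.44 CPM in the wild-type tumors. In ΔAgo2-labelled tumors 1 to 4 it stood at 52.6, 53.4, 51.3 and 33.6 CPM. The groups did not overlap, with the lowest ΔAgo2-labelled tumor just above the highest wild-type tumor. The mean was 15.3 ± 11.7 CPM in wild-type and 47.7 ± 9.48 CPM in ΔAgo2-labelled tumors (SD, n = 4), a log2 fold change of 1.61 (SE 0.51, edgeR adjusted p = 0.0933). A gene whose lowest ΔAgo2-labelled tumor lies above its highest wild-type tumor is not rare here, as 8.05% of genes tested did so, and 2 of the 9 members.

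Ifit2, which has been tied to cell death, measured 33.0, 16.0, 20.7 and 4.59 CPM in the wild-type tumors. Its values in the ΔAgo2-labelled tumors were 32.6, 80.9, 54.3 and 44.1 CPM. ΔAgo2-labelled tumor 1 lay just below wild-type tumor 1, and the other ΔAgo2-labelled tumors lay above every wild-type tumor. The means of 18.5 ± 11.7 and 53.0 ± 20.6 CPM (SD, n = 4) gave a log2 fold change of 1.49 (SE 0.48, edgeR adjusted p = 0.0966). Its spread among ΔAgo2-labelled tumors, 2.48-fold, was the widest of the Ifit genes in that group.

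Ifit3 measured 31.2, 9.06, 13.8 and 5.30 CPM in the wild-type tumors. In ΔAgo2-labelled tumors 1 to 4 it measured 44.3, 44.3, 37.7 and 26.0 CPM. Here ΔAgo2-labelled tumor 4 lay below wild-type tumor 1, and 3 of the 4 ΔAgo2-labelled tumors lay above all wild-type tumors. The log2 fold change was 1.34 (SE 0.45, edgeR adjusted p = 0.107), from means of 14.8 ± 11.4 and 38.1 ± 8.64 CPM (SD, n = 4).

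Ifit3b, the near-identical copy of Ifit3, measured 7.81, 3.34, 3.80 and 1.00 CPM in the wild-type tumors. The ΔAgo2-labelled tumors had 8.23, 11.0, 10.6 and 5.55 CPM. As for Ifit3, only ΔAgo2-labelled tumor 4 lay within the wild-type range. The log2 fold change was 1.10 (SE 0.47, edgeR adjusted p = 0.172). Ifit3b took 15.7% to 26.9% of the counts assigned to Ifit3 and Ifit3b together, with wild-type tumor 2 at the top (26.9%, Wilson 95% interval 21.9% to 32.6%) and ΔAgo2-labelled tumor 1 at the bottom (15.7%, 14.3% to 17.1%). These intervals cover counting error only, and the share also depends on how reads shared by the copies were assigned.

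Ifit1bl1 and Ifit1bl2 are Ifit1-like genes of the mouse with less known roles. Ifit1bl1 had 6.28, 1.00, 2.29 and 0.430 CPM in the wild-type tumors, the last of these from 3 counts. It had 4.14, 7.23, 8.21 and 4.96 CPM in the ΔAgo2-labelled tumors. Wild-type tumor 1 lay among the ΔAgo2-labelled tumors, and the other wild-type tumors lay below them. Its log2 fold change was 1.21 (SE 0.61, edgeR adjusted p = 0.225).

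Ifit1bl2 had the fewest counts, with 0.412, 0.334 and 0.399 CPM in the first 3 wild-type tumors and 0 counts in wild-type tumor 4, which allows up to 0.430 CPM. The ΔAgo2-labelled tumors had 0.533, 0.483, 0.836 and 0.445 CPM. The groups did not overlap, but the limit of wild-type tumor 4 lies so near the lowest ΔAgo2-labelled value that the order is not settled at this depth. The log2 fold change was 0.76 (SE 0.52, edgeR adjusted p = 0.351). Ifit1 and Ifit1bl2, which are read outward from the stretch printed above, thus differed in mean level between groups by 1.61 and 0.76 on the log2 scale. Their log2 ratio differed between groups by 0.52 (exact permutation p = 0.4, adjusted 0.576), in the test of all pairs described further on. Both values lean on wild-type tumor 4, whose ratio of 7.05 was the highest of all tumors. With 0 counts of Ifit1bl2 that ratio is set by the prior count. The other wild-type ratios were 6.08, 4.56 and 5.54.

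Ifitm1, found largely at the cell surface, measured 41.5, 28.1, 52.4 and 42.1 CPM in the wild-type tumors. In ΔAgo2-labelled tumors 1 to 4 it measured 60.6, 21.4, 40.7 and 31.6 CPM. The ΔAgo2-labelled tumors held both the highest and the lowest value and spanned the wild-type range. Its log2 fold change of -0.09 (SE 0.31, edgeR adjusted p = 0.873) was smaller than its SE, and its sign turned without wild-type tumor 3 (0.05) and without ΔAgo2-labelled tumor 2 (0.10) or 4 (0.02).

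Ifitm2, found in endosomes, measured 151.7, 172.1, 159.2 and 300.3 CPM in the wild-type tumors. The ΔAgo2-labelled tumors had 346, 104, 145 and 135 CPM. In each group 1 tumor was far above the others, and the remaining tumors were at 151.7 to 172.1 CPM in wild-type and 104 to 145 CPM in ΔAgo2-labelled tumors. The log2 fold change was -0.10 (SE 0.38, edgeR adjusted p = 0.882). It was 0.20 without wild-type tumor 4 and -0.62 without ΔAgo2-labelled tumor 1.

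Ifitm3, the endosomal member best known for hindering influenza virus, measured 933, 1034, 714.5 and 1362 CPM in the wild-type tumors. It measured 1415, 542, 692 and 553 CPM in the ΔAgo2-labelled tumors. ΔAgo2-labelled tumor 1 was above every wild-type tumor and the other ΔAgo2-labelled tumors were below every wild-type tumor. The log2 fold change was -0.34 (SE 0.34, edgeR adjusted p = 0.537), with means of 1011 ± 269.3 and 801 ± 415 CPM (SD, n = 4). Without ΔAgo2-labelled tumor 1 the log2 fold change was -0.77, with an edgeR adjusted p of 0.0638.

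Levels of different genes were compared per length on the TPM scale of the authors. Ifitm3 was at 3837 ± 562 TPM in wild-type and 3375 ± 824 TPM in ΔAgo2-labelled tumors (SD, n = 4), which placed it between the 25th and the 41st gene of a tumor. Ifitm2 followed at 758 ± 116 and 785 ± 255 TPM and Ifitm1 at 99.2 ± 30.2 and 102 ± 22.8 TPM. The Ifit genes lay below them in mean TPM. In wild-type tumors their order was Ifit3 (23.7 ± 19.4 TPM), Ifit1 (16.2 ± 13.0), Ifit2 (13.3 ± 8.93), Ifit3b (5.59 ± 4.18), Ifit1bl1 (3.12 ± 3.37) and Ifit1bl2 (0.242 ± 0.165). In ΔAgo2-labelled tumors the order was the same, at 66.9 ± 18.9, 55.2 ± 14.9, 43.9 ± 23.7, 13.8 ± 5.46, 8.66 ± 3.66 and 0.525 ± 0.184 TPM. Neighbours in the order Ifit3, Ifit1 and Ifit2 differed in mean TPM by less than either SD in both groups. So did Ifit2 and Ifit3b, Ifit3b and Ifit1bl1, and Ifit1bl1 and Ifit1bl2 by less than the larger SD in wild-type tumors. The SD is the spread between tumors and not that of the order within a tumor. Within each tumor Ifit3 was above Ifit1, and Ifit2, Ifit3b, Ifit1bl1 and Ifit1bl2 kept their order. In wild-type tumor 4 the last 2 had only 3 and 0 counts. Ifit1 lay below Ifit2 in wild-type tumor 2 (9.05 and 11.58 TPM) and ΔAgo2-labelled tumor 2 (73.68 and 75.41 TPM). The TPM steps from Ifitm3 to Ifitm2, from Ifitm2 to Ifitm1 and from Ifitm1 to Ifit3 exceeded the SDs in both groups.

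**Figure D2:**
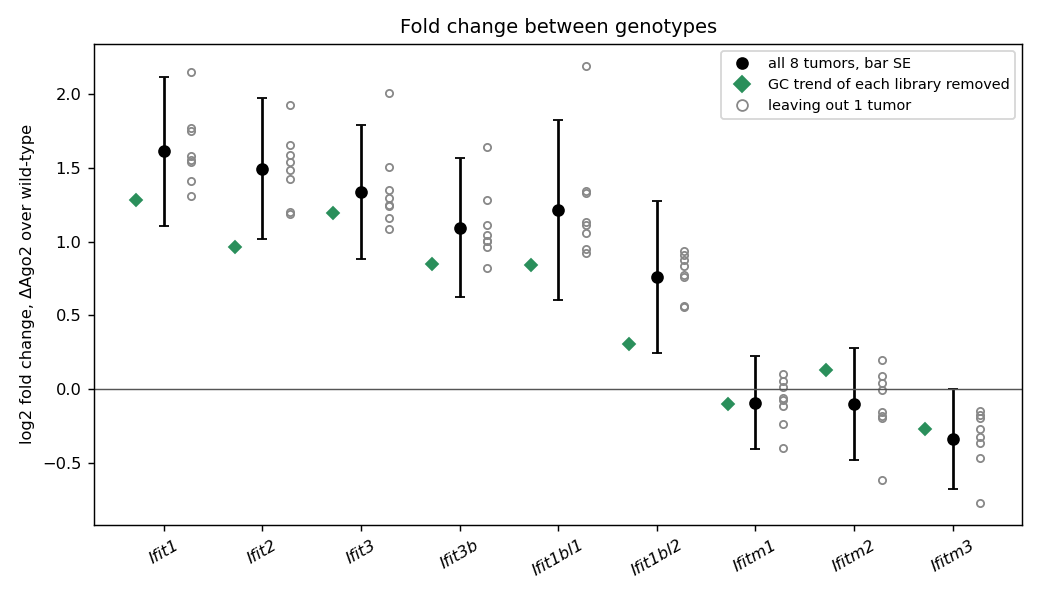
Log2 fold change of ΔAgo2-labelled over wild-type tumors (y axis) for the 9 genes (x axis). Black points are the edgeR values with their SE as a bar, open circles the values leaving out 1 tumor, and diamonds the values after removing the GC trend of each library. The 6 Ifit genes lie above 0 throughout, while values for Ifitm1 and Ifitm2 lie on both sides of 0.

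Which Ifit genes were called turned on single tumors, and the size of their values moved with a correction for base composition. Without wild-type tumor 1, the wild-type tumor with the most Ifit RNA, Ifit1 (log2 fold change 2.15, edgeR adjusted p = 0.0429), Ifit3 (2.00, 0.0196) and Ifit1bl1 (2.19, 0.0452) passed the threshold. Without wild-type tumor 4, the shallowest library and the lowest in Ifit RNA, the log2 fold changes were 1.31 for Ifit1, 1.19 for Ifit2 and 1.08 for Ifit3, with adjusted p from 0.124 to 0.193. Libraries differed in how counts followed GC content. The Ifit transcripts have 41.8% to 47.5% GC and the Ifitm transcripts 50.7% to 54.4%, where the median gene tested has 49.8%. At the GC content of each Ifit gene the trend over all genes differed between groups by 0.22 to 0.63 on the log2 scale, in the direction of the Ifit values, and at that of Ifitm1, Ifitm2 and Ifitm3 by 0.01, -0.25 and -0.07. After removal of that trend the log2 fold changes were 1.28 for Ifit1, 0.96 for Ifit2, 1.19 for Ifit3, 0.85 for Ifit3b, 0.84 for Ifit1bl1 and 0.30 for Ifit1bl2, and 0 of the 9 genes were called.

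**Figure D3:**
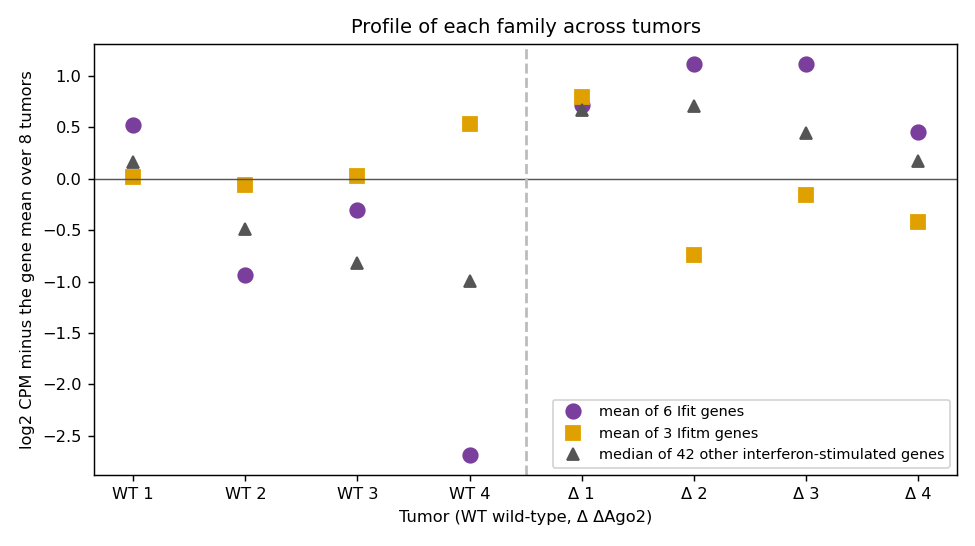
Mean over the 6 Ifit genes (circles), mean over the 3 Ifitm genes (squares) and median over 42 other interferon-stimulated genes (triangles) of log2 CPM minus the gene's mean over the 8 tumors (y axis), for each tumor (x axis; WT wild-type, Δ ΔAgo2-labelled). The Ifit mean runs from -2.69 in wild-type tumor 4 to 1.12 in ΔAgo2-labelled tumors 2 and 3, and the Ifitm mean from -0.75 to 0.80.

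The order of the tumors was summarised by the mean over each family. The Ifit mean, each gene centred on its own mean log2 CPM, was 0.52, -0.94, -0.30 and -2.69 in the wild-type tumors. It was 0.71, 1.11, 1.12 and 0.46 in the ΔAgo2-labelled tumors. Wild-type tumor 1 thus lay at the level of ΔAgo2-labelled tumor 4, and wild-type tumor 4 far below the rest. The Ifitm mean was 0.02, -0.06, 0.03 and 0.54 in the wild-type tumors and 0.80, -0.75, -0.15 and -0.42 in the ΔAgo2-labelled tumors. Its top tumors were ΔAgo2-labelled tumor 1 and wild-type tumor 4, the latter being the tumor with the least Ifit RNA. Among wild-type tumors the CPM of single Ifit genes other than Ifit1bl2 spanned 5.88-fold to 14.6-fold and that of Ifitm genes 1.87-fold to 1.98-fold. Among ΔAgo2-labelled tumors the Ifit genes spanned 1.59-fold to 2.48-fold and the Ifitm genes 2.61-fold to 3.34-fold.

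Ratios between members, in which the scaling of a library cancels apart from the prior count, were compared for all 36 pairs with an exact permutation test, two-sided, which has 70 assignments of tumors to groups and a smallest p of 0.0286. After Benjamini-Hochberg adjustment over the 36 pairs, 0 had a p under 0.05, and 2 pairs reached the smallest unadjusted p. Even with all 18 pairs of an Ifit with an Ifitm gene at that smallest p, these pairs alone could not pass after adjustment. The count of 0 therefore cannot decide whether the families differed. The log2 ratio of Ifit1 to Ifitm3 was -4.98, -6.93, -5.17 and -8.62 in the wild-type tumors. It was -4.75, -3.34, -3.75 and -4.04 in the ΔAgo2-labelled tumors, so that each of these lay above each wild-type tumor. The group means differed by 2.45 (exact permutation p = 0.0286, adjusted 0.193). For Ifit1 to Ifitm1 the difference was 2.19, from -1.81 ± 1.31 to 0.38 ± 0.66 (SD, n = 4), with the same p values by the exact test.

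The 18 pairs of an Ifit with an Ifitm gene had positive differences of 1.58 to 2.45 on the log2 scale, as the signs of the fold changes imply. Differences within the Ifit family ran from -0.45 to 0.61 over 15 pairs, and those within the Ifitm family from 0.05 to 0.26 over 3 pairs. Thus the ratio of Ifit1 to Ifit3 was -0.08, -0.10, 0.52 and -0.62 in wild-type and 0.25, 0.27, 0.44 and 0.37 in the ΔAgo2-labelled tumors, a difference of 0.40 (exact permutation p = 0.143, adjusted 0.286). Ifitm2 to Ifitm3 kept between -2.62 and -2.03 over the 8 tumors.

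**Figure D4:**
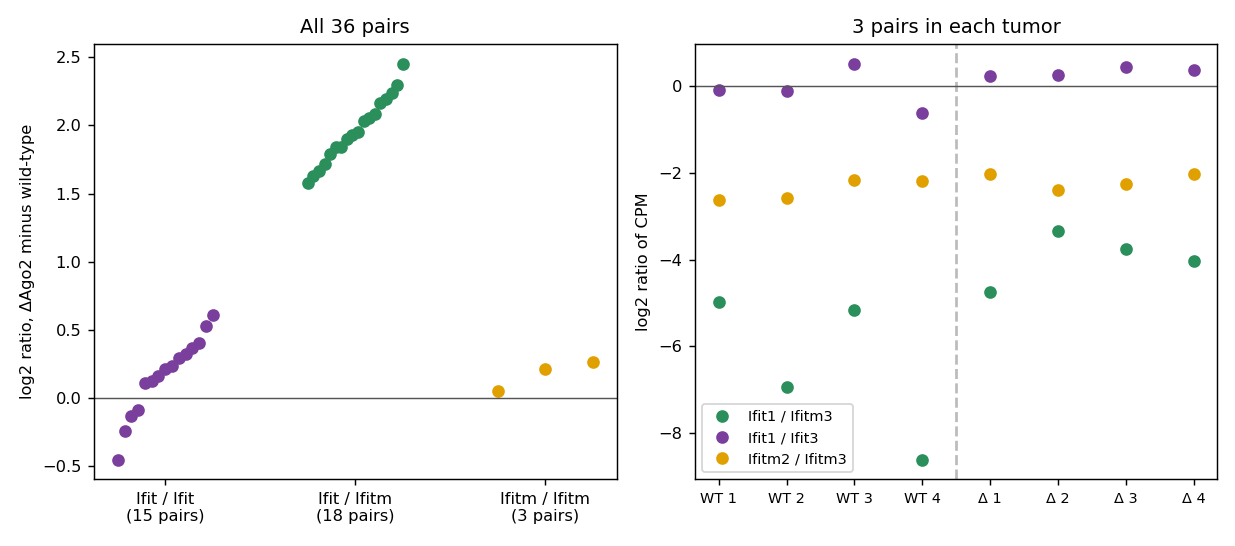
Left, difference of the log2 ratio between ΔAgo2-labelled and wild-type tumors (y axis) for the 36 pairs of members by family (x axis). Right, log2 ratio of CPM (y axis) in each tumor (x axis) for 3 pairs, of which Ifit1 / Ifitm3 spans -8.62 to -3.34 and Ifitm2 / Ifitm3 -2.62 to -2.03.

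Around the clusters, the neighbouring genes did not follow the families as a block. Next to the Ifit cluster, Lipa (log2 fold change 0.42), Ch25h (0.14) and Fas (0.09) on the lower side and Slc16a12 (-0.14), Pank1 (1.18) and Kif20b (1.60, edgeR adjusted p = 0.0934) on the upper side were tested, and 0 of these 6 passed. Next to the Ifitm cluster, B4galnt4, an enzyme of glycan synthesis, was called lower in ΔAgo2-labelled tumors, from 6.07 ± 2.24 to 1.05 ± 0.190 CPM (SD, n = 4; log2 fold change -2.52, edgeR adjusted p = 0.00522). The other neighbours there, Pgghg (-0.80), Cox8b (-2.16), Ifitm5 (0.36), Ifitm6 (0.39) and Pkp3 (-0.20), were not called. Ifitm5, the bone-restricted member, and Ifitm6 are relatives of the family, and with Ifitm10 (-0.85) they were the 3 of 6 relatives that passed the filter, with 0 called.

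Ordered by role, the IFN pathway showed its differences among the other target genes. Of 89 pathway genes, 67 were tested and 5 were called with edgeR, 5 higher and 0 lower, beside 3.49% of all genes. The ligands were at the limit of detection. Of 21 ligand genes 0 passed the filter and 5 had no count in any tumor, and the 21 summed to 0.0953 to 0.860 CPM in wild-type and 0.172 to 0.739 CPM in ΔAgo2-labelled tumors. Ifng, the ligand of type II signaling, made up most of this, with 0.112, 0.0953, 0.189 and 0.717 CPM in the wild-type tumors and 0.718, 0.176, 0.179 and 0.101 CPM in the ΔAgo2-labelled tumors. The top tumors for Ifng, wild-type tumor 4 and ΔAgo2-labelled tumor 1, were also those with the highest Ifitm mean. Ifnb1 had counts in ΔAgo2-labelled tumors 2 and 4 alone, at 0.0263 and 0.0105 CPM, which are 3 counts each and under the 0.430 CPM that a count of 0 allows in wild-type tumor 4. Each of Ifna1, Ifna2, Ifna4, Ifna5, Ifna6, Ifna9, Ifna11, Ifna13, Ifna14, Ifna16, Ifnab, Ifnk, Ifne and Ifnz had counts in at least 1 tumor and none had a mean above 0.0358 CPM in either group, so no difference in ligands was detectable at this depth.

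Among receptors and signal carriers 0 of 11 tested genes were called, 8 had a positive log2 fold change and the median was 0.48. Inducing factors, such as Irf3, Irf7 and the adaptor Mavs, had 0 of 9 called and a median of 0.08. Of the negative regulators, which include the SOCS proteins, 0 of 5 were called, with a median of -0.36. The other interferon-stimulated genes had 5 of 42 called and 31 with an unadjusted p under 0.05. Of all genes tested, 1.36% were called higher and 13.7% were higher at an unadjusted p under 0.05. Positive log2 fold changes were found in 42 of 42, and their median was 0.99, beside 0.04 over all genes tested. With the GC trend removed, 6 of the 67 pathway genes tested were called, all higher. Outside the list the study chose on these tumors, which holds 7 of the 42, the other 35 had 2 called, 35 positive values and a median of 0.91.

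Rsad2, which makes a chain-terminating nucleotide, rose from 14.4 ± 8.48 to 58.8 ± 13.4 CPM (SD, n = 4; log2 fold change 2.01, edgeR adjusted p = 0.0177). Zbp1, a sensor of nucleic acids in the Z form, rose from 27.6 ± 4.58 to 68.8 ± 25.1 CPM (SD, n = 4; 1.32, edgeR adjusted p = 0.0278). Gbp7, a guanylate-binding protein, rose by 2.30 on the log2 scale (edgeR adjusted p = 0.0434) and Oas2, which makes the activator of RNase L, by 1.61 (edgeR adjusted p = 0.0435). The log2 fold changes of Ifit1 (1.61) and Oas2 (1.61) were alike, but the SE was 0.51 for Ifit1 and 0.37 for Oas2, as Ifit1 spread more among wild-type tumors. The median of the 42 centred log2 CPM values was 0.16, -0.49, -0.82 and -0.99 in the wild-type tumors and 0.67, 0.70, 0.45 and 0.17 in the ΔAgo2-labelled tumors, so that wild-type tumor 1 reached the level of ΔAgo2-labelled tumor 4 here too. How many pathway genes were called turned on single tumors, from 0 without wild-type tumor 2, ΔAgo2-labelled tumor 2 or ΔAgo2-labelled tumor 3 to 17 without wild-type tumor 1, and was 3, 1, 12 and 2 without wild-type tumor 3, wild-type tumor 4, ΔAgo2-labelled tumor 1 and ΔAgo2-labelled tumor 4.

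Genes nearest in pattern were found by the root mean square difference of the centred log2 CPM from the family mean over the 8 tumors. For the Ifit mean they were Pvrig (0.25), F730311O21Rik (0.29), 4833418N17Rik (0.29), Apol7a (0.30) and Slfn5 (0.31), where the median gene was at 1.24. For the Ifitm mean they were Blvrb (0.05), Rpl27a (0.07), Prdx2 (0.08), Rpl13 (0.08) and Polr1d (0.08), where the median gene was at 0.69. Members lay at 0.22 to 0.59 from the Ifit mean and at 0.15 to 0.28 from the Ifitm mean, so that each of the 5 genes was nearer to the Ifitm mean than any Ifitm gene. In wild-type tumor 4, the shallowest library, Pvrig, F730311O21Rik and 4833418N17Rik stood at -2.79, -2.78 and -2.71. For genes with few counts such values are set by depth and the prior count. Whether these genes lay at that floor was not tested. Patterns over 8 tumors share the depth and base composition of the libraries, and the part of these was not tested.

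Markers of host cells are given beside these values. Pan-leukocyte markers summed to 462 to 906 CPM in wild-type and 433 to 840 CPM in ΔAgo2-labelled tumors, with 0 of 5 called, and their members did not share an order of tumors. Coro1a, the largest part of the sum in wild-type tumor 4 (619 CPM), and Ptprc, which encodes CD45, ran opposite ways. Ptprc was at 33.1, 23.1, 25.8 and 13.9 CPM in wild-type and 35.5, 83.6, 40.9 and 49.6 CPM in ΔAgo2-labelled tumors, without overlap and with wild-type tumor 4 lowest, as for the Ifit genes (log2 fold change 1.12, edgeR adjusted p = 0.0785). Cd53 had a log2 fold change of 1.07 (edgeR adjusted p = 0.220). Those of Cd52, Coro1a and Laptm5 were 0.51, -0.87 and -0.05. Macrophage and monocyte markers summed to 1017 to 1296 and 723 to 1965 CPM, with 0 of 6 called, and the sum was led by C1qa and C1qb, which were highest in wild-type tumor 4 and ΔAgo2-labelled tumor 1 of their groups, as were Ifitm2 and Ifitm3. Ccr2, a receptor of monocytes, was at 44.8, 19.8, 40.2 and 9.75 CPM in wild-type and 48.6, 102, 51.8 and 66.2 CPM in ΔAgo2-labelled tumors, again without overlap and with wild-type tumor 4 lowest (log2 fold change 1.22, edgeR adjusted p = 0.115). Adgre1 was also lowest in wild-type tumor 4 (23.1 CPM), with a log2 fold change of 0.0034. The other log2 fold changes of this list were -0.40 for Csf1r, -0.17 for C1qa, -0.04 for C1qb and 0.69 for Ly6c2. T cell markers had 0 of 5 called and a median of 0.19, and neutrophil markers 0 of 5 called and a median of -0.27. NK cell markers summed to 0.717 to 3.49 and 2.55 to 4.21 CPM, with wild-type tumor 4 lowest. There Ncr1, Klrb1c, Klre1 and Eomes had only 2, 1, 0 and 2 counts, so that order is not settled at this depth. Plasmacytoid dendritic cell markers, of a cell known for making type I IFN, had 0 of 4 called, and their sum was led by Cox6a2, which muscle also expresses. Keratinocyte markers had 1 of 5 called higher, Krt10. The part of these cells in the values of the families was not tested.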

How the data were processed

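The 9 genes and the lists were chosen with earlier results of these data known. Whole-transcriptome libraries of 8 tumors were made with a stranded mRNA kit and sequenced paired-end per the labels. The authors deposited raw counts per gene, whole numbers with no normalization, and TPM values, which the authors scaled by gene length and library total. The labels name STAR and mm10, and the methods describe removal of ribosomal reads and counting with featureCounts for cultured cells, which was assumed for the tumors. For these counts the annotation, strand setting and handling of multi-mapping reads are not given in the sources used here, so counts of near-identical genes are uncertain. Identifiers were matched to GENCODE M21 (99.29% with their version).

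Counts were tested with edgeR 4.0.16 in R 4.3.3 (filterByExpr, TMM, quasi-likelihood test, no covariate, Benjamini-Hochberg over 16061 genes, threshold 0.05). The labels call the tumors biological replicates and name no mice, so p-values measure the spread between these tumors. Log2 CPM used a prior count of 2. The SE is the log2 fold change over the root of its F statistic. GC trends were fitted per library by lowess using genes averaging 50 counts or more. Named were the 9 genes, pathway genes past the threshold (at most 4 per role by smallest p), ligands with counts, 5 genes nearest in pattern per family and 3 tested protein-coding neighbours on each side. Krt10, Cox6a2, Ifitm10 and the simple epithelium, fibroblast, leukocyte, macrophage and NK cell markers were named outside this rule, with their values seen. Same-numbered tumors did not deviate together (correlations -0.24, 0.10, -0.04 and -0.29), so they were not paired. Alternatives were other scalings, filters and tools (DESeq2 1.42.0, limma 3.58.1), thinning, GC and length corrections, a replicate block, the TPM values and leaving out each tumor. Scripts were tested on simulated data.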

Additional observations from a re-analysis of the deposited data

Results flagged for a closer look

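Of 26 groups of 4 tumors examined, for the 9 genes and for Rsad2, Zbp1, Gbp7 and Oas2, 2 held a tumor whose gap to the nearest of the others exceeded Dixon's critical share of the range of the group at 95%, and chance gives about 1 in 20. Ifit1 was at 33.6 CPM in ΔAgo2-labelled tumor 4, while the other ΔAgo2-labelled tumors were at 51.3 to 53.4 CPM. Ifitm2 was at 300.3 CPM in wild-type tumor 4, while the other wild-type tumors were at 151.7 to 172.1 CPM.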

How the results depend on the processing

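The count of members called, 0, was 0 in 18 of 23 alternatives. It was 3 with DESeq2 (Ifit1, Ifit2, Ifit3), 2 with voom (Ifit2 higher, Ifitm3 lower), 2 with no count filter (Ifit1, Ifit2) and 2 with the replicate block and the GC trend removed (Ifit1, Ifit3), and it ran from 0 to 3 leaving out 1 tumor. The log2 fold changes of the 6 Ifit genes stayed positive in 132 of 132 alternative values, and 11 of these passed the threshold. Ifitm3 stayed negative in all 23 alternatives, from -0.77 to -0.15. Ifitm1 turned positive without wild-type tumor 3, ΔAgo2-labelled tumor 2 or 4 (0.05, 0.10, 0.02) and on the TPM values (0.0595 with a pseudocount of 1, filtered or not, and 0.0602 with 0.1). Ifitm2 turned positive without wild-type tumor 4, ΔAgo2-labelled tumor 2 or 4 (0.20, 0.09, 0.04), with the GC trend removed (0.13), with the block and the GC trend removed (0.0293) and on the TPM values (0.0107 in all 3 settings). Leaving out 1 tumor gave -0.40 to 0.10 for Ifitm1 and -0.62 to 0.20 for Ifitm2. The filtered TPM values moved the median of all genes to 0.21 with a pseudocount of 1 and 0.28 with 0.1, and relative to it Ifitm1 was at -0.15 and -0.22 and Ifitm2 at -0.20 and -0.27. No count filter moved that median to 0.16, relative to which the Ifitm genes were at -0.44 to -0.20.

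Of the pathway genes, 5 were called, against 2 with total counts, 23 with DESeq2 (22 higher), 21 with voom (17 higher), 17 with no count filter, 12 with the length trend removed, 10 with the block and the GC trend removed, 3 with log2(TPM + 1), 1 with log2(TPM + 0.1), 1 with log2(TPM + 1) and no filter, and 0 to 17 leaving out 1 tumor. The cause was not tested. The replicate block, by a number that does not pair the tumors, gave 0 members, 0 pathway genes and 70 genes in all, where 560 were called without it. For the pairs, 0 of 36 had an adjusted p under 0.05 in any of 13 alternatives. Here too the smallest p kept the 18 pairs of an Ifit with an Ifitm gene from passing on their own, so this count decides nothing. Leaving out wild-type tumors 1, 2, 3 and 4 in turn, 7, 2, 4 and 1 pairs had an unadjusted p of 0.0286. Leaving out a ΔAgo2-labelled tumor, 0 pairs went below a p of 0.0571, and sign flips under the block cannot go below 0.125. Depth limits Ifit1bl2, Ifit1bl1 and the ligands in wild-type tumor 4.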
